A study of Mus musculus with 8 samples.

Results

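MHC class II and its regulators are followed here through 7 genes in intestinal crypts, the glands of the gut epithelium, from mice with chemically induced colitis that did or did not also carry the label CA. The members were taken by gene name: H2-Aa, H2-Ab1 and H2-Eb1, which encode chains of the antigen-presenting molecules, H2-DMa and H2-DMb1, which encode the peptide-loading factor DM, Cd74, which encodes the invariant chain, and Ciita, the transcriptional coactivator of the others. All 7 of 7 were found among the 34745 genes of each deposited table, and all 7 passed the filter on low values. The DSS+CA group comprised 4 libraries of crypts from wild-type C57BL/6 mice on day 5 of dextran sulfate sodium (DSS), which damages the colonic epithelium, plus CA, cholic acid by the title of the series and one of the primary bile acids. The DSS group comprised 4 libraries of crypts from wild-type C57BL/6 mice on day 5 of DSS without CA. DSS was thus common to both groups, and neither healthy crypts nor crypts with cholic acid alone are among the libraries. The labels give no gut segment, age, dose or route, and do not say whether the 4 libraries of a group came from separate animals, so the p-values measure only the spread between these libraries, which may be technical.

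MHC class II molecules are surface proteins of an alpha and a beta chain that show peptides from endosomes to CD4+ T cells. The invariant chain (Cd74) accompanies the new chains to the endosome, proteases cut it down to a short remnant in the peptide groove, and DM exchanges that remnant for antigenic peptides. The coactivator CIITA does not bind DNA itself. It docks on RFX, CREB and NF-Y factors that sit on X and Y boxes shared by the promoters of class II genes, and its own gene is switched on by interferon gamma through IRF1 in cells that are not professional antigen-presenting cells. B cells, dendritic cells and many macrophages carry class II constantly, and intestinal epithelial cells gain it under interferon gamma. C57BL/6 mice lack a working H2-Ea gene, so their H2-Eb1 chain has no partner for the I-E molecule, and I-A, made by H2-Aa and H2-Ab1, is their surface class II molecule.

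The promoters of 3 class II genes are shown first, because they carry the letters that the CIITA-docking factors recognise. The sequences are from RefSeq on GRCm38.p6, 5′ to 3′ on the strand of the gene, and capitals mark GNAAC, a core of the X box, and TGATTGG, the Y box with its inverted CCAAT. H2-Aa and H2-Eb1 stand for the abundant members, and H2-Ob, a B cell-restricted chain of the DM inhibitor DO, for a class II gene that was barely detected. The stretches lie at chr17:34287847-34287924 on the minus strand for H2-Aa, at chr17:34305756-34305832 on the plus strand for H2-Eb1 and at chr17:34238798-34238872 on the plus strand for H2-Ob, all upstream of the RefSeq start site and free of annotated exons in GENCODE M21.
H2-Aa: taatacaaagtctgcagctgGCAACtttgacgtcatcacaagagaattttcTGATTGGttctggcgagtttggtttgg
H2-Eb1: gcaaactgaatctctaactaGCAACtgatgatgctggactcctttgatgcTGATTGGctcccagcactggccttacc
H2-Ob: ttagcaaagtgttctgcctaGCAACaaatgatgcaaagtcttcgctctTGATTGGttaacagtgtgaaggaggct
The gap between the capitalised boxes was 26 bases in H2-Aa, 25 in H2-Eb1 and 23 in H2-Ob. Of the 11 class II genes and regulators looked up, 8 had a window of 250 bases before to 50 bases after a start site, and 6 of these held GNAAC followed by TGATTGG 20 to 40 bases on: the 3 shown, H2-DMb1 with a gap of 26 bases, H2-Oa with 26 and H2-Eb2 with 25. The H2-DMb2 window held TGATTGG without GNAAC at that distance, but its start site lay 1942 bases from the start of the deposited gene. The windows listed for H2-DMa lay 9664 and 12350 bases from the start of the deposited gene. Over all 32851 windows in the table, GNAAC stood in 84.8% on either strand, TGATTGG in 7.82%, and the spaced pair in 0.572%. On the strand of the gene alone, as the class II windows were searched, the spaced pair stood in 0.253%. The 2 elements do not overlap in the pair. The letters and the spacing were chosen with these windows in view, so the matches are a description of the sequences and no evidence of binding.

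Library totals lay between 13334012 and 17973196 counts. Levels are given as CPM, counts scaled to a common library size by the trimmed mean of M values (TMM), and levels between genes as FPKM, the deposited value per kilobase of gene. A difference between libraries cut across the groups. The harmonic mean of gene length over counts, in which short genes weigh most, was 1445 to 2412 bases in DSS+CA and 1423 to 2234 bases in DSS. By this measure the counted genes were shortest in DSS 2, DSS+CA 3 and DSS 3. On the leading principal component (50.9% of the variance in log2 CPM) DSS+CA 3 and DSS 2 lay at one end, at 67.8 and 59.9, with DSS 3 next at 23. Mitochondrial genes took 9.72% to 20.5% of the counts in DSS+CA and 16.2% to 27.7% in DSS. The summed level of 8 epithelial markers, none of them specific to crypts, was 10815 to 11485 CPM in DSS+CA and 10397 to 11835 CPM in DSS. TMM scaling holds the bulk of genes level between libraries, so this sum is no independent measure of epithelial content. The log2 fold changes of these markers ran from -0.441 for Epcam to 0.614 for Krt19, with 3 of 8 below 0, against 48.1% of all tested genes.

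All 7 members were lower on average in DSS+CA, by 1.9-fold for H2-DMa to 4.03-fold for Ciita, and none of them passed the threshold of an adjusted p of 0.05 over the 9913 genes tested (edgeR quasi-likelihood test with Benjamini-Hochberg adjustment). That threshold called 9 genes lower in DSS+CA, 0.0908% of those tested, and 4 higher, 0.0404%. A log2 fold change below 0 was found for 7 of 7 members, against 48.1% of all tested genes, and one of -1 or below for 6 of 7, against 4.26%. Without adjustment, 7 of the 7 members had a p below 0.05 in the lower direction, against 4.85% of all tested genes. For H2-DMa and Cd74 this depended on the scaling and on single libraries. With library size only, their unadjusted edgeR p-values were 0.21 and 0.104, and without DSS 1 they were 0.0777 and 0.0533. In TMM-scaled CPM the groups did not overlap in 5 of the 7, H2-Aa, H2-Ab1, H2-Eb1, H2-DMb1 and Ciita. This was so for 2.81% of all tested genes in the lower direction. In the deposited FPKM, which carry no TMM scaling, H2-Eb1 and Ciita did overlap. There DSS+CA 4 was at 118 and 1.74 FPKM, and DSS 2 at 110 and 1.51 FPKM. The median log2 fold change of the members was -1.29, against 0.0183 over all tested genes. Because the members were assembled with results of these data known, the counts describe them and do not add independent support.

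**Figure D1:**
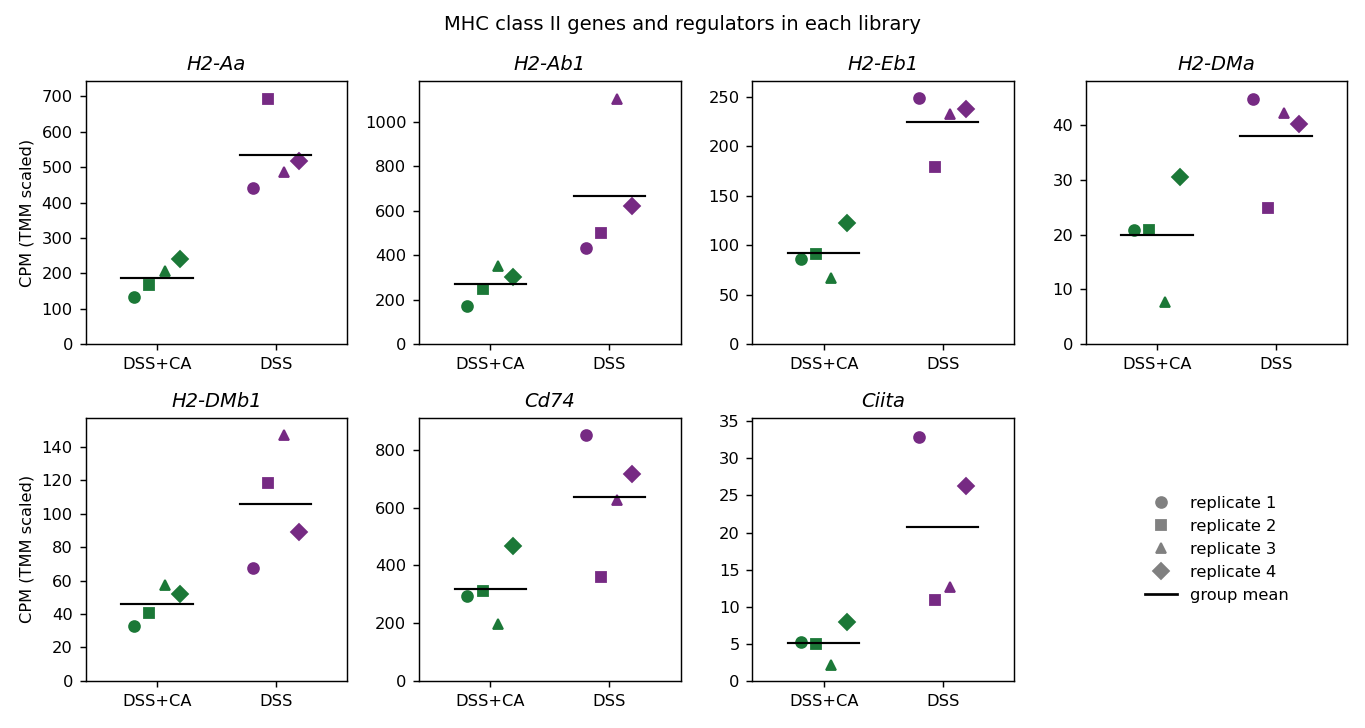
Level of each of the 7 genes in every library, in TMM-scaled CPM on a linear axis from 0, with DSS+CA on the left and DSS on the right; marker shapes are the replicate numbers and the black bar is the mean of the 4 libraries. In H2-Aa, H2-Ab1, H2-Eb1, H2-DMb1 and Ciita every DSS+CA library lies below every DSS library, and in H2-DMa and Cd74 the lowest DSS library, DSS 2, lies below the highest DSS+CA library, DSS+CA 4.

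The antigen-presenting chains were the first role examined. H2-Aa (ENSMUSG00000036594, chromosome 17 from 34282744 to 34287827), the alpha chain of I-A, was at 134, 166, 208 and 241 CPM in DSS+CA 1 to 4, against 442, 694, 488 and 517 CPM in DSS 1 to 4. The highest DSS+CA library stayed well under the lowest DSS library, and the group means were 187 ± 46.9 and 535 ± 110 CPM (SD, n = 4 each). The log2 fold change was -1.52 (SE 0.313), the member with the smallest p of the 7, at rank 57 among the tested genes with an edgeR adjusted p of 0.082. H2-Ab1 (ENSMUSG00000073421, chromosome 17 from 34263209 to 34269418), its beta chain partner, was at 171, 249, 353 and 302 CPM in DSS+CA 1 to 4, against 435, 501, 1103 and 621 CPM in DSS 1 to 4. DSS 3 stood above all other libraries for this gene, and the groups still did not overlap without it. The log2 fold change was -1.31 (SE 0.384, edgeR adjusted p = 0.254), and -0.95 without DSS 3.

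H2-Eb1 (ENSMUSG00000060586, chromosome 17 from 34305877 to 34316199), the beta chain of I-E, was at 86.1, 91.6, 67.1 and 122 CPM in DSS+CA 1 to 4, against 249, 179, 233 and 238 CPM in DSS 1 to 4. Its DSS libraries were the least scattered of any member, with a coefficient of variation of 13.8%, and in CPM the groups did not overlap. In FPKM they did, with DSS+CA 4 at 118 and DSS 2 at 110. The log2 fold change was -1.29 (SE 0.287, edgeR adjusted p = 0.108). The pseudogene that replaces its alpha chain partner in this strain, listed as H2-Ea-ps, had 1 count in the 4 DSS+CA libraries and 2 in the 4 DSS libraries, so transcripts of the I-E beta chain were abundant where those of its partner were at the detection limit.

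The peptide-loading factor and the invariant chain were lower on average as well, with overlap in some. H2-DMb1 (ENSMUSG00000079547, chromosome 17 from 34153072 to 34160230), the beta chain of DM, was at 33.1, 40.7, 57.2 and 52.2 CPM in DSS+CA 1 to 4, against 67.7, 118, 147 and 89 CPM in DSS 1 to 4. The groups did not overlap, with DSS+CA 3 closest to DSS 1, and the log2 fold change was -1.20 (SE 0.323, edgeR adjusted p = 0.19). Its transcripts shared 22.7% of their 50-base words with the neighbouring paralogue H2-DMb2, so reads of the pair can be exchanged, although H2-DMb2 itself had only 13 counts in DSS+CA and 41 in DSS. H2-DMa (ENSMUSG00000037649, chromosome 17 from 34135182 to 34139101), the alpha chain of DM, was at 20.9, 20.8, 7.67 and 30.6 CPM in DSS+CA 1 to 4, against 44.8, 24.9, 42.3 and 40.2 CPM in DSS 1 to 4. DSS+CA 4 lay above DSS 2, and the log2 fold change of -0.93 (SE 0.395, edgeR adjusted p = 0.579) was the smallest of the members; it was -0.66 without DSS+CA 3.

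Cd74 (ENSMUSG00000024610, chromosome 18 from 60803848 to 60812646), the invariant chain, was at 295, 311, 198 and 466 CPM in DSS+CA 1 to 4, against 852, 359, 626 and 716 CPM in DSS 1 to 4. DSS 2 was below DSS+CA 4, while the other 3 DSS libraries were above every DSS+CA library. The log2 fold change was -1.01 (SE 0.373, edgeR adjusted p = 0.451). Ciita (ENSMUSG00000022504, chromosome 16 from 10488178 to 10527564) was at 5.28, 5, 2.15 and 7.96 CPM in DSS+CA 1 to 4, against 32.9, 10.9, 12.7 and 26.3 CPM in DSS 1 to 4. It had the largest fold of the 7 and rested on the fewest reads, 21 to 146 counts a library in DSS+CA and 143 to 540 in DSS. The log2 fold change was -2.01 (SE 0.473, edgeR adjusted p = 0.129), and the coefficient of variation within DSS was 51.5%, the largest of the members in that group. Counts are summed per gene, so the separate promoters that Ciita uses in dendritic cells, B cells and interferon gamma-treated cells cannot be told apart.

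Per kilobase, the order of the members was similar in all libraries. Ciita was the lowest member in 8 of 8 libraries, at 0.3 to 1.74 FPKM in DSS+CA and 1.51 to 7.61 FPKM in DSS, with H2-DMa and H2-DMb1 next above it. Cd74 led in DSS+CA 1, 2 and 4 and in DSS 1 and 4, at 179 to 267 FPKM in those DSS+CA libraries and 358 and 517 FPKM in those DSS libraries, whereas H2-Ab1 led in DSS+CA 3 and DSS 3 and H2-Aa in DSS 2. The chain genes H2-Aa, H2-Ab1 and H2-Eb1 lay between 41.6 and 147 FPKM in DSS+CA and between 110 and 386 FPKM in DSS, and these 3 overlapped one another within each group. Cd74 overlapped with them in range as well, whereas H2-DMb1, H2-DMa and Ciita kept their order in 8 of 8 libraries without overlap between neighbours within a group. The 7 genes together took 0.0958%, 0.102%, 0.0655% and 0.14% of the counts in DSS+CA 1 to 4, against 0.258%, 0.138%, 0.219% and 0.225% in DSS 1 to 4. In bulk RNA such as this, fewer cells of a type and less RNA per cell cannot be told apart.

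Whether the members differed by unequal amounts was asked with the ratio of their FPKM within each library, which no scaling between libraries affects. Of the 6 ratios, 0 passed in an exact two-sided permutation test over the 70 assignments of the libraries (smallest adjusted p = 0.771). The smallest unadjusted p the design allows is 0.0286, and after adjustment over the 6 ratios a single ratio at that p could not pass. A ratio could be called only if several were at that p together, so the 0 was nearly fixed by the design. H2-Aa to H2-Ab1, the chains of I-A, was 0.72, 0.61, 0.543 and 0.733 in DSS+CA 1 to 4, against 0.933, 1.27, 0.407 and 0.765 in DSS 1 to 4. The ratio was steadier in DSS+CA, where its SD was 0.206 on the log2 scale, than in DSS, where it was 0.695; the difference in spread was not tested. Cd74 to H2-Aa was 2.81, 2.4, 1.21 and 2.48 in DSS+CA 1 to 4, against 2.47, 0.661, 1.64 and 1.77 in DSS 1 to 4. The invariant chain thus exceeded the alpha chain per kilobase in 7 of 8 libraries, and the groups overlapped (mean difference 0.525 log2, exact permutation p = 0.314; 0.139 without DSS 2). Ciita to H2-Aa was 0.00503 to 0.0192 in DSS+CA and 0.00766 to 0.0364 in DSS, a mean difference of -0.483 log2 (exact permutation p = 0.486) that turned to 0.199 with 1 FPKM added, and H2-DMa to H2-DMb1 was 0.101 to 0.474 in DSS+CA and 0.159 to 0.497 in DSS (a mean difference of 0.12 log2). These p-values above the threshold do not show that the members moved by equal amounts, since the SD of the 6 log2 ratios within a group was 0.206 to 1.06.

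Among the libraries of one group the members formed 2 sets, which were recognised after the values were seen and carry no test. H2-Eb1, H2-DMa, Cd74 and Ciita deviated together from their group means, with Pearson r of 0.839 to 0.957 over the 6 pairs of genes and the 8 libraries. H2-Aa, H2-Ab1 and H2-DMb1 formed the other set, with r of 0.351 to 0.855 over 3 pairs, and between the sets r was -0.675 to 0.0127 over 12 pairs. Libraries share depth and composition, so these values describe only how the genes varied here. In both groups the first set was lowest in the library with the shortest counted genes: Ciita was 1.06 below its group mean in DSS+CA 3 and 0.76 below it in DSS 2 (log2 CPM), and Cd74 was 0.62 and 0.76 below. In DSS 3, whose counted genes were nearly as short, Ciita was 0.55 below its group mean, and H2-Eb1, H2-DMa and Cd74 were 0.06, 0.19 and 0.04 above theirs. The second set was 0.19 to 0.44 above its group means in DSS+CA 3, but in DSS 2 it was divided, with H2-Aa 0.40 and H2-DMb1 0.22 above and H2-Ab1 0.31 below. Ciita at 5254 bases and H2-Eb1 at 1184 bases, the longest and the shortest of the 7 genes, were both in the first set. Whether gene length plays a part in the sets was not tested.

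**Figure D2:**
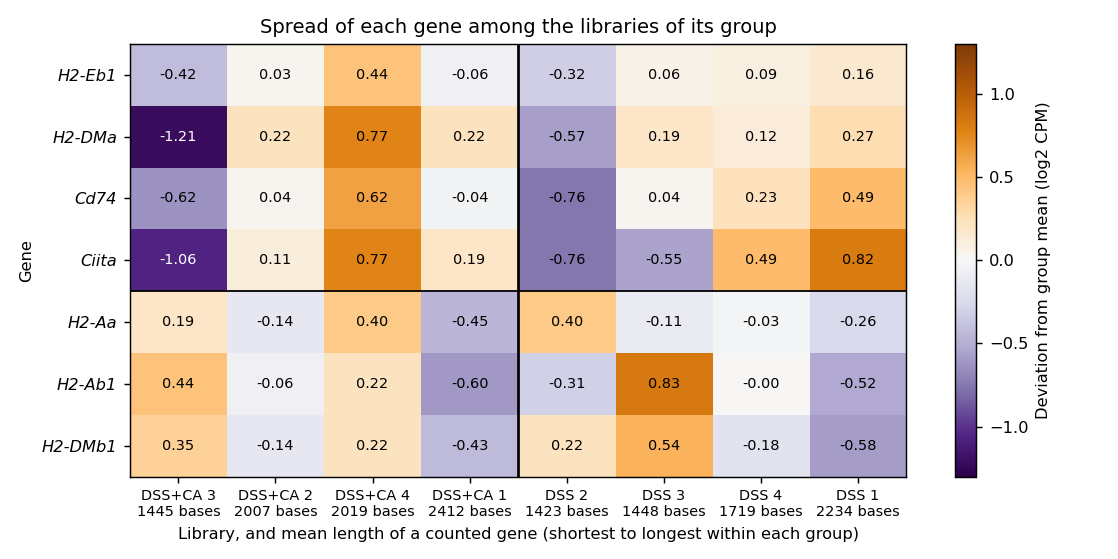
Deviation of each gene from the mean of its own group in log2 CPM, for each library, with DSS+CA left of the vertical line and DSS right of it. Libraries are ordered within a group by the mean length of a counted gene in bases, a harmonic mean over counts. The upper 4 genes are low in DSS+CA 3 (-1.21 to -0.42) and DSS 2 (-0.76 to -0.32), the libraries with the shortest counted genes of their groups, though not in DSS 3 apart from Ciita (-0.55). The lower 3 genes are above their means in DSS+CA 3 (0.19 to 0.44) and divided in DSS 2, where H2-Ab1 is at -0.31.

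With log2 of that harmonic mean length as a covariate in the edgeR fit, 5 of the 7 members passed in the lower direction, H2-Aa, H2-Eb1, H2-DMb1, Cd74 and Ciita, against 3.27% of all tested genes, with Ciita at -2.43 (adjusted p = 0.00893) and Cd74 at -1.24 (adjusted p = 0.0346). With the replicate number as a block 1 of 7 passed, Ciita, against 0.514% of all tested genes. H2-Ab1 and H2-DMa had adjusted p-values of 0.051 and 0.0589 in the fit with the length covariate. Without DSS 2, DSS 3 and DSS+CA 3, 5 of 7 members passed, H2-Aa, H2-Ab1, H2-Eb1, Cd74 and Ciita, against 4.25% of all tested genes; that fit left 3 DSS+CA and 2 DSS libraries. In DESeq2 on all 8 libraries 5 of 7 passed, H2-Aa, H2-Ab1, H2-Eb1, H2-DMb1 and Ciita, against 1.7% of all tested genes. The direction was lower in DSS+CA for every member in these fits.

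The remaining class II genes were close to the detection limit. H2-Oa and H2-Ob, the chains of the DM inhibitor DO, had 1 and 5 counts in the 4 DSS+CA libraries together, against 7 and 45 in the 4 DSS libraries. H2-Eb2 had 1 count in DSS+CA and 35 in DSS, the DSS counts being spread over all 4 libraries. None of the 5 genes of this list, H2-DMb2 and H2-Ea-ps included, reached the filter, and in the edgeR fit with no filter the smallest adjusted p was 0.122 for H2-Eb2.

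Transcripts of the factors on which CIITA docks had a median difference much smaller than that of the members, although no test compared the lists. Of 11 genes for X and Y box factors and their coactivators, 10 were tested, 0 passed in either direction (0 at an unadjusted p below 0.05), and the median log2 fold change was -0.179. Rfxap and Rfxank, subunits of the RFX complex on the X box, were at 9.46 ± 1.52 and 21.5 ± 2.88 CPM in DSS+CA and 10.4 ± 1.92 and 22.4 ± 3.22 CPM in DSS (SD, n = 4 each). Their log2 fold changes were -0.14 (SE 0.284) and -0.06 (SE 0.258). Rfx5, the DNA-binding RFX subunit, was below the filter at 5.73 ± 1.92 CPM in DSS+CA and 4.65 ± 2.42 CPM in DSS. The genes with the smallest p were Creb1, whose product joins the X box complex, at -0.87 (SE 0.433, edgeR adjusted p = 0.7), and the acetyltransferase gene Kat2b at -0.41 (SE 0.294, edgeR adjusted p = 0.886).

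Interferon gamma signalling, the route to Ciita in epithelial cells, was followed from ligand to targets. Ifng itself had 0 counts in the 4 DSS+CA libraries and 25 in the 4 DSS libraries, where it was found in every library; a sum of 0 leaves room for up to 3 counts, and the fit with no filter gave it an edgeR adjusted p of 0.127. The receptor subunit gene Ifngr1 was at 133 ± 9.19 CPM in DSS+CA and 94.2 ± 15.6 CPM in DSS (SD, n = 4 each), higher in DSS+CA without overlap and short of the threshold (0.50, SE 0.255, edgeR adjusted p = 0.707), and Ifngr2 differed by -0.15 (SE 0.341). The genes of the list with the smallest p were Irf1 and Irf9. Irf1, which binds the interferon-responsive Ciita promoter, was at 43.6 ± 11.7 CPM in DSS+CA and 91.3 ± 22.2 CPM in DSS with no overlap (-1.07, SE 0.306, edgeR adjusted p = 0.241). Irf9, a partner of interferon-activated factors, was at 29.6 ± 1.78 CPM in DSS+CA and 44.4 ± 7.82 CPM in DSS, also with no overlap (-0.58, SE 0.253, edgeR adjusted p = 0.599). Of the 11 tested genes of this list 0 passed in either direction, and 6 were below 0, near the 48.1% of all tested genes. In the lower direction 2 had an unadjusted p below 0.05, against 4.85% of all tested genes. The median log2 fold change of the list was -0.152. Irf2, a repressor that competes with IRF1, was at 0.13 (SE 0.347) and Socs3, a feedback inhibitor of cytokine signalling, at -0.19 (SE 0.291). Irf8 was at -0.57 (SE 0.276, edgeR adjusted p = 0.68), with overlap. Socs1, of the same list, was below the filter with 41 counts in DSS+CA and 120 in DSS, without overlap. In the fit with no filter Socs1 was at -1.52 (SE 0.533, edgeR adjusted p = 0.295). Irf2, Socs3, Irf8 and Socs1 are named outside the naming rule.

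**Figure D3:**
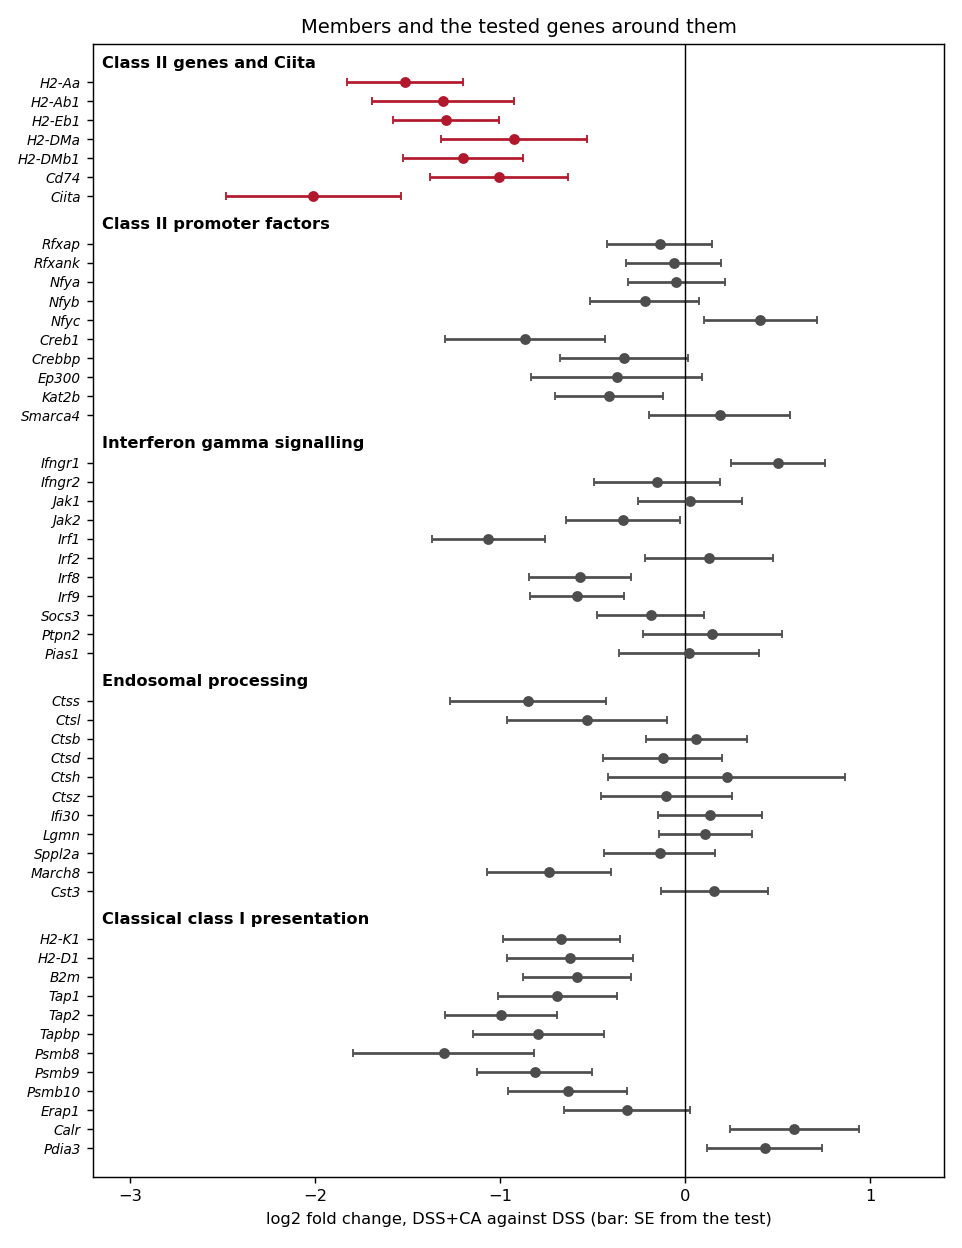
Log2 fold change of DSS+CA against DSS, with the SE from the edgeR test as a bar, for the 7 members (red) and the tested genes of 4 lists around them (grey). The members lie between -2.01 and -0.93, the promoter factors between -0.87 and 0.41 and the endosomal genes between -0.85 and 0.22. The classical class I list has 10 of 12 genes below 0, against 48.1% of all tested genes.

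The endosomal enzymes that prepare the invariant chain and antigens showed no common direction. Of 12 listed genes 11 were tested, 6 of them below 0, near the 48.1% of all tested genes. The median was -0.103, with 0 past the threshold in either direction (0 at an unadjusted p below 0.05). Ctss, cathepsin S, which cuts the invariant chain, was at 107 ± 56.9 CPM in DSS+CA and 192 ± 89.7 CPM in DSS (SD, n = 4 each; -0.85, SE 0.421, edgeR adjusted p = 0.699). March8, a ubiquitin ligase that removes class II from the surface, was at 56.3 ± 26 CPM in DSS+CA and 93.9 ± 17.3 CPM in DSS (-0.74, SE 0.337, edgeR adjusted p = 0.641). Ifi30, a thiol reductase of the endosome, and Lgmn, an asparaginyl endopeptidase, differed by 0.13 (SE 0.282) and 0.11 (SE 0.252).

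Classical MHC class I presentation was set beside class II because both respond to interferon gamma. Of its 13 genes 12 were tested, and 10 were below 0, against 48.1% of all tested genes. In the lower direction 4 had an unadjusted p below 0.05, against 4.85% of all tested genes. None passed the threshold in either direction. The median log2 fold change was -0.653, against -1.29 for the class II members, and whether the sets differed was not tested. The genes with the smallest p were Tap2, a subunit of the peptide transporter, at 28.4 ± 5.46 CPM in DSS+CA and 56.7 ± 15.6 CPM in DSS (-0.996, SE 0.301, edgeR adjusted p = 0.279), and the immunoproteasome gene Psmb8 (-1.31, SE 0.489, edgeR adjusted p = 0.463). Nlrc5, the class I counterpart of CIITA, was below the filter at 4.76 ± 1.5 CPM in DSS+CA and 14 ± 8.01 CPM in DSS (SD, n = 4 each), with no overlap and an edgeR adjusted p of 0.154 in the fit with no filter.

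Ligands that accompany antigen presentation were mostly below the filter, as 1 of 8 co-stimulatory and checkpoint genes was tested. Cd80 and Cd86, the co-stimulatory ligands of professional presenting cells, had 5 and 3 counts in DSS+CA and 24 and 30 in DSS. Icosl, the tested gene, was at 10.2 ± 3.16 CPM in DSS+CA and 6.68 ± 1.44 CPM in DSS (SD, n = 4 each; 0.62, SE 0.336, edgeR adjusted p = 0.746). Cd274, which encodes the inhibitory ligand PD-L1, is named after its values were seen: it had 34 counts in DSS+CA and 305 in DSS, at 0.587 ± 0.235 and 4.98 ± 2.64 CPM, without overlap. In the fit with no filter, where 0.314% of the 19457 genes were called lower, it was at -3.04 (SE 0.57, edgeR adjusted p = 0.0236).

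On the T cell side, transcripts of class II receptors were low. Cd4, the co-receptor of helper T cells, had 39 counts in DSS+CA and 77 in DSS. Lag3, an inhibitory receptor that binds class II, was at 1.23 ± 0.708 CPM in DSS+CA and 5.45 ± 2.47 CPM in DSS (SD, n = 4 each; -2.13, SE 0.539, edgeR adjusted p = 0.16), and it was the 1 of 9 genes of this list that could be tested, with 0 past the threshold and 1 at an unadjusted p below 0.05.

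Transcripts of cells that carry class II constantly were scarce in all libraries, and none of the B cell or dendritic cell markers reached the filter. The 8 B cell markers summed to 0.716 to 2.23 CPM in DSS+CA and 4.94 to 8.39 CPM in DSS, without overlap, and 8 of 8 had counts. Ms4a1, which encodes CD20, had 19 counts in DSS+CA and 136 in DSS, and the B cell receptor subunit gene Cd79a had 18 and 75. The 8 dendritic cell markers summed to 1.27 to 1.64 CPM in DSS+CA and 3.58 to 7.99 CPM in DSS, again without overlap; Batf3 was at 0 in every library, Xcr1 at 0 in DSS+CA, and Itgax, an integrin gene also used by intraepithelial lymphocytes, supplied most of the sum with 68 counts in DSS+CA and 271 in DSS. The other 7 dendritic cell markers overlapped between the groups or were at 0, among them Flt3, a growth factor receptor gene of dendritic cells and their precursors, with 9 counts in DSS+CA and 11 in DSS. The 11 macrophage and monocyte markers summed to 10.8 to 23.7 CPM in DSS+CA and 21 to 29.7 CPM in DSS, with overlap and with Fcgr1 at 0 throughout. Most of the DSS+CA sum came from Itgam and Mrc1, at 7 and 3.81 CPM there and 6.2 and 2.22 CPM in DSS. The other detected markers were lower on average in DSS+CA. Lyz2, the tested one, was at -1.60 (SE 0.623, edgeR adjusted p = 0.497) with overlap. C1qb and C1qc had 22 and 1 counts in DSS+CA and 68 and 35 in DSS, without overlap. The 5 plasma cell markers summed to 248 to 381 CPM in DSS+CA and 165 to 269 CPM in DSS, nearly all of it from Xbp1 and Sdc1, which epithelial cells also express. Jchain, the antibody joining chain gene and more particular to plasma cells, was at 4.55 ± 3.95 CPM in DSS+CA and 9.95 ± 3.94 CPM in DSS (SD, n = 4 each; -1.15, SE 0.585, edgeR adjusted p = 0.704). Against these sums, the 7 members summed to 745 to 1221 CPM in DSS+CA and 1887 to 2652 CPM in DSS.

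Markers of T and NK cells, which carry little class II in mice, were lower on average as well. Of 14 markers 13 were tested, and 13 of 13 were below 0, against 48.1% of all tested genes. The median log2 fold change was -1.9, against -1.29 for the class II members. Cd8b1 and Zap70 passed the filter through the 4 DSS libraries alone, so the lower level of these genes in DSS+CA was largely set by the filter. Of the 13 tested markers, 12 had an unadjusted p below 0.05 in the lower direction, against 4.85% of all tested genes. The groups did not overlap in 10, against 2.81%. The threshold was passed by 1, against 0.0908%: Itgae, an integrin of intraepithelial T cells, at -1.90 (SE 0.297, edgeR adjusted p = 0.038). Their summed level, most of it from the granzyme gene Gzma at 303 ± 370 CPM in DSS+CA and 904 ± 519 CPM in DSS (SD, n = 4 each), did overlap. The 14 T and NK cell markers summed to 115 to 1111 CPM in DSS+CA and 586 to 2026 CPM in DSS. The 5 markers of group 3 innate lymphoid cells, some of which carry class II, summed to 3.48 to 9.56 CPM in DSS+CA and 4.88 to 21.9 CPM in DSS, with overlap. The growth factor receptor gene Kit, with 487 counts in DSS+CA and 786 in DSS, made up most of that sum, and Il22 was at 0 throughout. Ptprc, the pan-leukocyte CD45 gene, was at 14.9 ± 11.2 CPM in DSS+CA and 65.6 ± 48.2 CPM in DSS, and the 4 pan-leukocyte markers summed to 14.3 to 63.6 CPM in DSS+CA and 95.7 to 197 CPM in DSS. The part that these cells play in the levels of the class II genes was not tested.

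**Figure D4:**
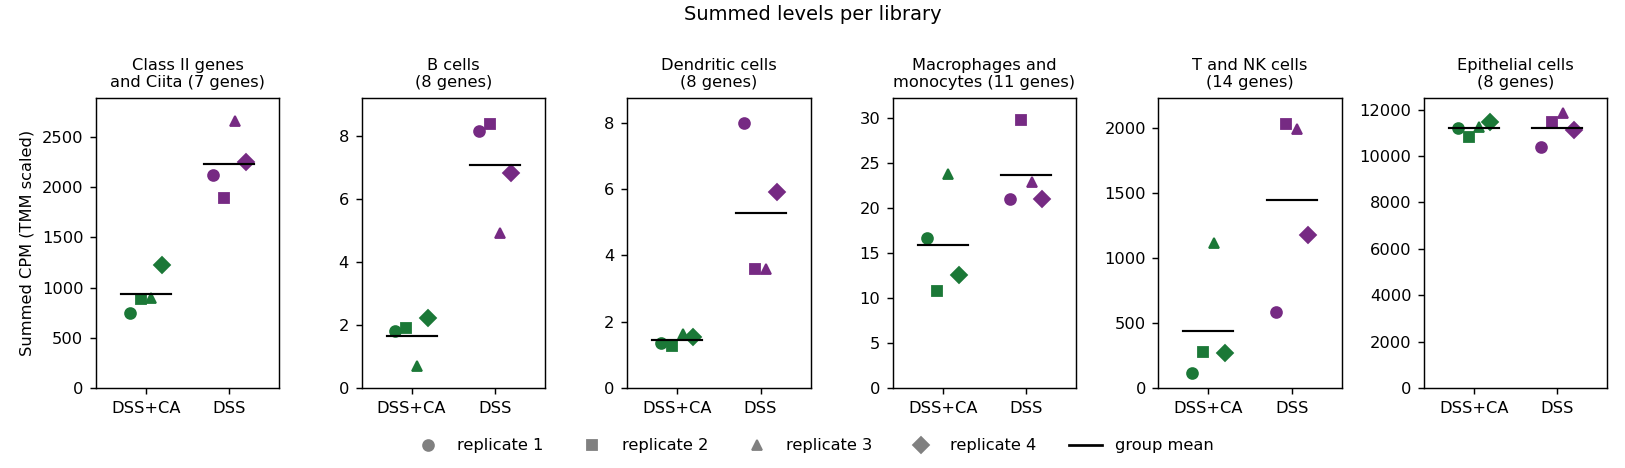
Summed TMM-scaled CPM per library of the 7 members and of 5 marker lists, each on its own linear axis from 0, with DSS+CA left of DSS, marker shapes for the replicate numbers and a black bar for the group mean. In this scaling the sums of the members, the B cell list and the dendritic cell list do not overlap between the groups. Those of the macrophage and T and NK cell lists do. As a share of all counts the members do overlap, at 0.14% in DSS+CA 4 and 0.138% in DSS 2. Of the tested T and NK cell genes 10 of 13 do not overlap, among them Cd8b1 and Zap70, which passed the filter through DSS alone. The epithelial list averages 11194 CPM in DSS+CA and 11206 CPM in DSS.

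The genes whose pattern was most like that of the class II genes were sought by Pearson r over the 8 libraries with the mean log2 CPM of the 7 members. The closest tested genes included Adora2b, the adenosine A2B receptor (r = 0.988), Cyth4, a cytohesin (0.982), Sept1, a septin (0.978), Sash3, a lymphocyte adaptor (0.974), the chemokine gene Ccl5 (0.972), Itgae (0.969) and Arrdc2, an arrestin-domain gene (0.968). Part of each r comes from the difference between the groups; with deviations from the group means in place of levels, r was 0.902 for Adora2b and 0.718 to 0.869 for the other 6 named. Sept1 passed the filter through the 4 DSS libraries alone. Its lower level in DSS+CA, and with it part of its r, was thus largely set by the filter. Adora2b was at 2.48, 2.91, 1.94 and 3.98 CPM in DSS+CA 1 to 4, against 10.4, 7.7, 8.6 and 8.85 CPM in DSS 1 to 4. As genes picked from 9913 over 8 libraries that share depth and composition, these are listed as a description with no p.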

How the data were processed

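RNA from crypts was sequenced in 4 DSS+CA and 4 DSS libraries, from 200 ng of total RNA with a TruSeq Stranded Total RNA kit, per the labels' protocols. For each Ensembl gene the authors deposited a raw read count and FPKM, per the file headers; HISAT2, StringTie, GRCm38 and mm10 are named per the submitters' processing notes, while no source used here names the counting tool, annotation or strand setting. Deposited FPKM values equalled count over gene length and total count, with the same length in every library within 1% for 17718 of 17718 genes with counts in at least 2 libraries. Genes with FPKM of at least 1 in at least 4 libraries (9913) were compared with edgeR 4.0.16 (limma 3.58.1, R 4.3.3): TMM scaling, quasi-likelihood test, group as the only term, two-sided, Benjamini-Hochberg over all tested genes, threshold 0.05. The SE is the absolute log2 fold change over the square root of F. Members, lists and alternatives were chosen with earlier results of these data known. All members were named; from each list up to 4 genes past the threshold or the 2 with the smallest p, a fixed set, and genes of most like pattern (log2 CPM with a prior count of 2); a few genes that these rules or lists would include are not reported here. Of 141 listed genes, 138 were matched by deposited symbol and 3 by an older symbol or gene ID. Alternatives included DESeq2 1.42.0. The procedure was tested on simulated data. Ratios used scipy 1.17.1 and figures matplotlib 3.10.9 in Python 3.11.15.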

Additional observations from a re-analysis of the deposited data

How the results depend on the processing

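All 7 members kept a log2 fold change below 0 in every alternative fit listed here. With each library left out in turn, 0 members passed, and the log2 fold changes ranged from -1.66 to -1.37 for H2-Aa, -1.47 to -0.95 for H2-Ab1, -1.46 to -1.17 for H2-Eb1, -1.20 to -0.66 for H2-DMa, -1.36 to -0.9998 for H2-DMb1, -1.25 to -0.84 for Cd74 and -2.31 to -1.70 for Ciita.

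The number of members called lower was 0 with DESeq2 size factors, library size only, no filter, filterByExpr or mitochondrial counts left out, 1 with the replicate block, and 5 with DESeq2, with the length covariate and without DSS 2, DSS 3 and DSS+CA 3. Over all genes, 9 were lower and 4 higher in DSS+CA in edgeR, with 775 at an unadjusted p below 0.05. These counts became 20 and 7 with DESeq2 size factors, 6 and 2 with library size only, 169 and 51 with DESeq2, 61 and 18 with no filter, 51 and 14 with the replicate block, 324 and 294 with the length covariate, 421 and 234 without DSS 2, DSS 3 and DSS+CA 3, and 19 and 8 with mitochondrial counts left out; the cause was not tested. With each library left out they ranged from 4 to 65 lower, highest without DSS+CA 3, and 0 to 19 higher, with 504 to 845 genes at an unadjusted p below 0.05 in the fits that called 0 higher. No label says whether the replicate numbers pair the libraries. Same-numbered libraries deviated from their group means with r of 0.752, -0.344, 0.105 and 0.197, and different-numbered ones with r from -0.707 to 0.734. Such values cannot settle whether the numbers pair them. With the block, Ciita was the member that passed (-2.001, edgeR adjusted p = 0.0348).

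For the ratios between members, 0 of 6 passed with 1 FPKM added, where again no single ratio could have passed after adjustment. Counts per gene length scaled by TMM give the same ratios by construction and are no separate check. Ciita to H2-Aa changed sign to 0.199 with 1 FPKM added, within its spread. With a library left out the smallest exact p is 0.0571, so no call could be made; the mean log2 differences then ranged from 0.139 to 0.794 for Cd74 to H2-Aa, -0.872 to -0.052 for Ciita to H2-Aa, -0.584 to -0.0346 for H2-Aa to H2-Ab1, 0.153 to 0.947 for H2-DMa to H2-Aa, -0.146 to 0.644 for H2-DMa to H2-DMb1 and -0.31 to 0.232 for H2-Eb1 to H2-Ab1. Ciita, at 21 counts in DSS+CA 3, and the class II genes below the filter are the values most limited by depth.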
